A study of Mus musculus with 15 samples.

Results

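Metallothioneins and 2 further genes of zinc handling were followed in mouse embryonic stem cells in which Tet1 or Sin3a had been depleted. The 5 genes were Mt1, Mt2, Mt3, Mtf1 and Slc30a1. They were chosen by gene symbol with earlier results of these data known, and the probe set with the highest mean was to be taken where a gene had several. Each gene had 1 probe set, so 5 of 21212 probe sets, or 5 of 18784 named genes, are described. Because the choice was made with results in view, the tests below describe how far a change exceeds the spread between arrays and are no independent support for it.

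All 15 samples were E14TG2a.4 cells at passage 17, a feeder-independent embryonic stem cell line, kept in 15% serum, 50 µM mercaptoethanol and leukaemia inhibitory factor. Lentiviruses (PLKO.1) had delivered a short hairpin RNA (shRNA) to every group, controls included, and puromycin at 2 µg per ml was applied from 36 hours after transduction for 72 hours. In the Tet1 set 3 arrays each were run for a scrambled shRNA, for Tet1 shRNA 4 and for Tet1 shRNA 5. A separate Sin3A set comprised 3 arrays of its own scrambled shRNA and 3 of a Sin3A shRNA. Tet1 encodes an enzyme that oxidises 5-methylcytosine, Sin3a the scaffold of a histone deacetylase complex, and the study asked how transcripts change when either is depleted. There is a single Sin3A hairpin, so an effect of that hairpin on other transcripts and an effect of Sin3a loss cannot be told apart. The labels do not state whether replicate arrays stand for separate cultures, so the p-values rest on an array-to-array spread that may be technical.

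Metallothioneins are small, cysteine-rich proteins that bind zinc and copper. Mt1 and Mt2 are made in most tissues, Mt3 chiefly in brain and Mt4 in stratified epithelium. The zinc-sensing transcription factor MTF-1, encoded by Mtf1, binds metal response elements in the promoters of Mt1, Mt2 and Slc30a1 when free zinc rises. Slc30a1 encodes ZnT1, which exports zinc across the plasma membrane, so that storage and export are switched on together when cells are loaded with zinc.

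The promoters of Mt1, Mt2 and Slc30a1 are shown because these are the genes whose knockdown arrays did not overlap with the scrambled ones. The sequences are from RefSeq (GRCm38.p6), all on the plus strand, and give the 250 bases before the annotated start. Capitals mark matches to the core of the metal response element, searched as TGCGCNC and TGCACNC on both strands, and a match on the other strand appears as its reverse complement.

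Mt1 (chr8:94178839-94179088): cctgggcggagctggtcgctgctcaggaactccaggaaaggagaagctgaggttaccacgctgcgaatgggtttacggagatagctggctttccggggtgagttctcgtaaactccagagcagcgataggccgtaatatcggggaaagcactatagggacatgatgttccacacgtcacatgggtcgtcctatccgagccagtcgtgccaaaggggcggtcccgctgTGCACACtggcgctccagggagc
Mt2 (chr8:94172368-94172617): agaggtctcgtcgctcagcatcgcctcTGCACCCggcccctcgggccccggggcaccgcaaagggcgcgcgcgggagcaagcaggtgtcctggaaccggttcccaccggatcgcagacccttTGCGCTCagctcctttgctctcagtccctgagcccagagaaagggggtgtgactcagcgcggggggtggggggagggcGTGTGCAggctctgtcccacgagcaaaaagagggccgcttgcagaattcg
Slc30a1 (chr1:191906531-191906780): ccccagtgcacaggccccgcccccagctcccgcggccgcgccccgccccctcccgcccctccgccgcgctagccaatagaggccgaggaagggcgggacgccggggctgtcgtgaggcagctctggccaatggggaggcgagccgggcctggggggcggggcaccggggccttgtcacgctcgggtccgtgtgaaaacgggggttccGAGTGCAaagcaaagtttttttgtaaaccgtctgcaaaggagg

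Further matches lie in the 50 bases after the annotated start, 2 in Mt1 and 1 each in Mt2, Slc30a1 and Mt3. Whether transcription begins at the annotated start was not tested, and bases outside the window were not searched. They are shown with 8 bases on either side.

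Mt1, bases 3 to 9: gggagctcTGCACTCcgcccgaa
Mt1, bases 21 to 27: ccgaaaagTGCGCTCggctctgc
Mt2, bases 5 to 11: ttcgggtcGTGCGCAggcccagg
Slc30a1, bases 31 to 37: tccgggccGAGCGCAgtcgccgc
Mt3, bases 28 to 34: gacagcagTGCACACacacggag

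Over the 300-base window Mt2 held 4 matches, Mt1 held 3, Slc30a1 held 2, and Mt3 and Mt4 held 1 each. Mtf1 held 0 in this window. Of 32851 RefSeq promoters of the same length, 25.7% held at least 1 match, 7.11% held 2 or more and 1.97% held 3 or more. A match is a string of letters and was not tested as a binding site. The windows of Mt1 and Mt2 each held 24 CpG dinucleotides, the context in which most DNA methylation lies, and those of Mtf1 and Slc30a1 held 25 and 36, against 8 for Mt3 and 5 for Mt4. The median over all promoters was 7.

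Values are log2 expression per array as deposited. The sets were on different scales (mean over probe sets 7.08 to 7.11 in the Tet1 set, 8.09 in the Sin3A set), so each knockdown is read against the scrambled arrays of its own set, and levels are not compared between probe sets. Tet1 was 3.43-fold and 4.30-fold lower with shRNA 4 and 5, and Sin3a was 2.93-fold lower with the Sin3A shRNA. Sin3a also fell by 0.27 and 0.24 on the log2 scale with Tet1 shRNA 4 and 5 (limma adjusted p = 0.0147 and 0.0219), and Tet1 rose by 0.31 with the Sin3A shRNA (0.00679). The part of these shifts in the results was not tested. Replicate 2 of scrambled in the Tet1 set and replicate 2 of Tet1 shRNA 4 stood apart, with deviations from their groups that correlated (r = 0.517 over all probe sets, a description). Values without both of these arrays are given where they change a call of the 5 genes, and counts of the gene lists without them are given at the end. All 5 genes lay above the median probe set in each of the 5 groups.

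Both ubiquitous metallothioneins lay below the scrambled arrays of the same set in every array of each knockdown, and most strongly with the Sin3A shRNA. The test was passed in each case except Mt1 with Tet1 shRNA 4 (limma adjusted p = 0.0603). With the replicate number as a block Mt1 passed there too (0.0229). With that shRNA Mt1 passed in 5 of 13 other settings, and the Mt2 call held in 5 of 13. Mt1 was 2.67-fold and Mt2 2.49-fold lower with the Sin3A shRNA, against 1.61-fold and 1.23-fold with Tet1 shRNA 5 and 1.27-fold and 1.17-fold with Tet1 shRNA 4. Mt3 and Mtf1 passed in none of these comparisons. Slc30a1 went the other way from Mt1 and Mt2, with every knockdown array above every scrambled array of its set, and it passed with Tet1 shRNA 5. How many of all probe sets separate in this way was not counted. With 3 arrays per group, statements here and below that groups do not overlap are descriptions only.

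**Figure D1:**
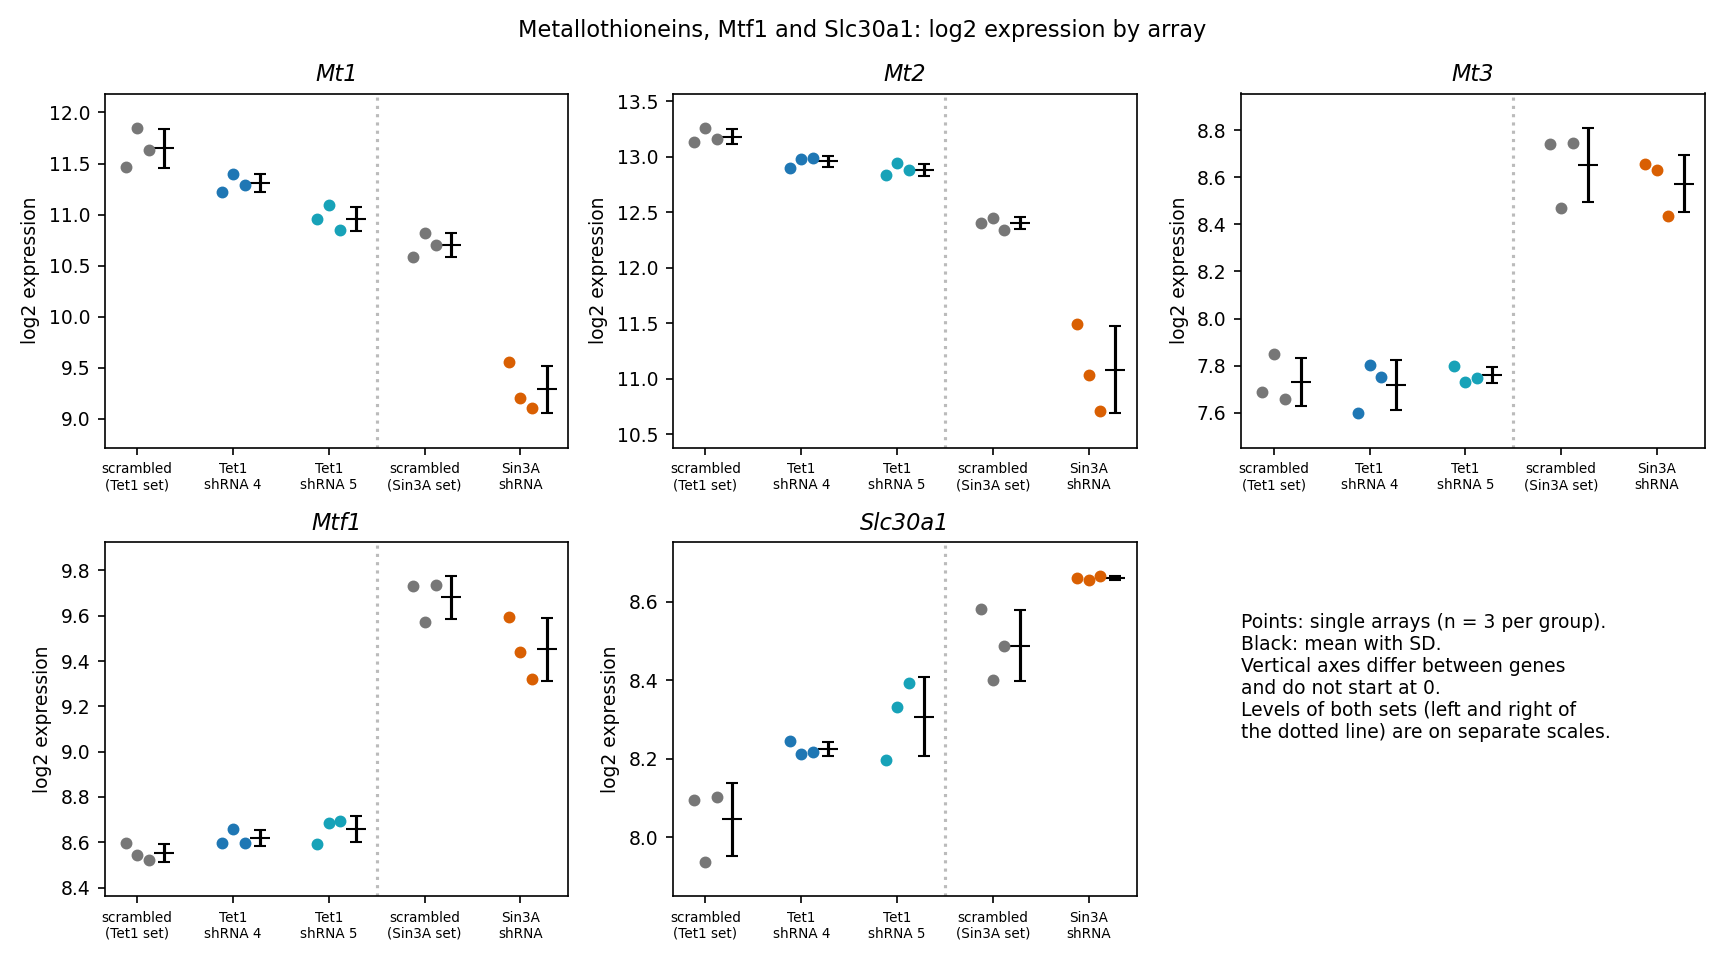
Log2 expression of each gene in every array (points), with the mean and SD of each group of 3 (black). Mt1 and Mt2 lie below the scrambled arrays in all 3 knockdown groups, Slc30a1 lies above them, and Mt3 and Mtf1 overlap with them.

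The Mt1 probe set read 11.47, 11.85 and 11.63 in the scrambled arrays of the Tet1 set (mean 11.65 ± 0.19, SD, n = 3). With Tet1 shRNA 4 it read 11.22, 11.40 and 11.29 (11.31 ± 0.090), and with Tet1 shRNA 5 it read 10.96, 11.09 and 10.85 (10.96 ± 0.12). The 3 groups did not overlap, and the order from high to low was scrambled, shRNA 4, shRNA 5. With shRNA 5 Mt1 fell by 0.69 on the log2 scale (SE 0.10, 95% interval -0.92 to -0.46, limma adjusted p = 0.00191). With shRNA 4 the difference was -0.35 (SE 0.10, -0.58 to -0.12) and missed the threshold of 0.05 (limma adjusted p = 0.0603). It passed in 5 of 13 other settings: without scrambled replicate 1 (-0.44, limma adjusted p = 0.0299), with the replicate number as a block (0.0229), after centring on the median (0.0395), among probe sets above the median level (0.0288) and with an intensity trend and robust variance (0.0392). Over all 13 settings the adjusted p lay between 0.0229 and 0.187.

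In the Sin3A set Mt1 read 10.58, 10.82 and 10.70 in the scrambled arrays (10.70 ± 0.12) and 9.55, 9.21 and 9.11 with the Sin3A shRNA (9.29 ± 0.23). Every knockdown array lay more than a log2 unit below the lowest scrambled array. The change was -1.42 (SE 0.12, 95% interval -1.69 to -1.14, limma adjusted p = 0.000208).

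Mt2, the neighbour of Mt1 on chromosome 8, followed the same direction with smaller Tet1 changes. It read 13.13, 13.26 and 13.16 with the scrambled shRNA of the Tet1 set (13.18 ± 0.071), 12.90, 12.98 and 12.99 with shRNA 4 (12.96 ± 0.049) and 12.83, 12.94 and 12.88 with shRNA 5 (12.88 ± 0.055). Both knockdown groups lay below the scrambled arrays and overlapped with each other. Mt2 fell by 0.30 with shRNA 5 (SE 0.062, 95% interval -0.44 to -0.16, limma adjusted p = 0.0098). With shRNA 4 it fell by 0.23 (SE 0.062, -0.37 to -0.089, limma adjusted p = 0.0423), a call that was lost without any 1 of the 6 arrays of the comparison (limma adjusted p = 0.0568 to 0.153) without both arrays set apart (0.0993) and with only the 2 groups compared (0.0905).

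With the Sin3A shRNA Mt2 read 11.49, 11.03 and 10.71 (11.08 ± 0.39), against 12.40, 12.45 and 12.34 in the scrambled arrays of that set (12.40 ± 0.057). The knockdown arrays were spread more widely than any other group of Mt2, and all lay below the scrambled ones. The fall was 1.32 on the log2 scale (SE 0.17, 95% interval -1.71 to -0.93, limma adjusted p = 0.00126). Mt1 and Mt2 are close relatives, and whether their probe sets measure them separately was not tested.

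The arrays of a group that read high for Mt1 tended to read high for Mt2. Replicate 1 of the Sin3A shRNA was the highest of its group for both, and replicate 2 of the scrambled group was the highest of the Tet1 set for both. The deviations of Mt1 and Mt2 from their group means had r = 0.769 over the 15 arrays. Both genes were read from the same RNA and normalized together in each array.

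**Figure D2:**
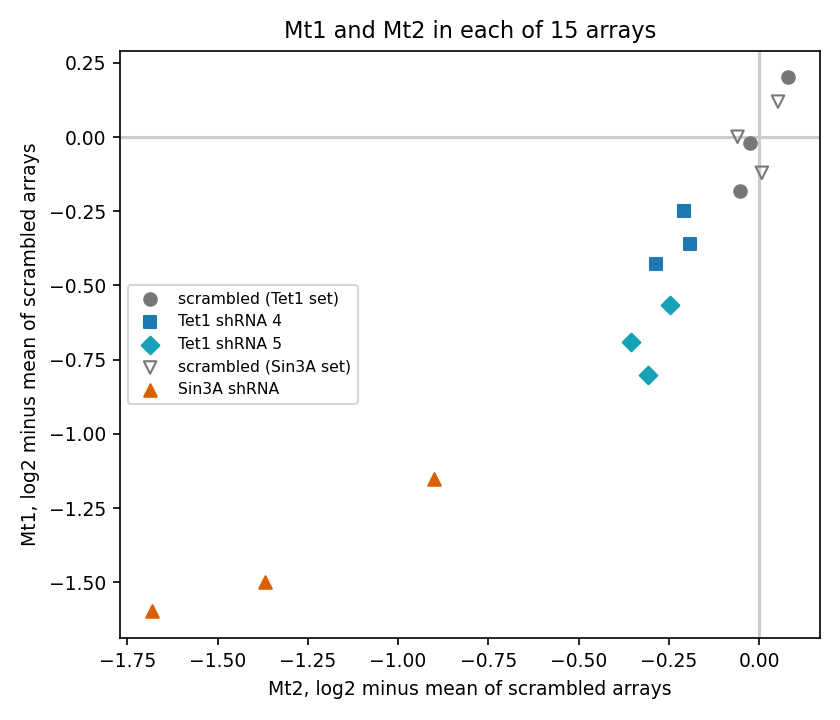
Mt1 against Mt2 in each of 15 arrays, as log2 difference from the mean of the scrambled arrays of the same set (3 arrays per group). The Sin3A shRNA arrays lie at -1.15 to -1.60 for Mt1 and -0.90 to -1.68 for Mt2, and the Tet1 shRNA arrays lie between them and the scrambled ones.

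Mt3, the brain-type metallothionein, read 7.69, 7.85 and 7.66 with the scrambled shRNA of the Tet1 set, 7.60, 7.80 and 7.75 with shRNA 4 and 7.80, 7.73 and 7.74 with shRNA 5. In the Sin3A set it read 8.74, 8.47 and 8.75 with scrambled and 8.66, 8.63 and 8.43 with the Sin3A shRNA. The groups overlapped throughout. The 95% intervals of the log2 difference were -0.18 to 0.15 for shRNA 4, -0.14 to 0.19 for shRNA 5 and -0.30 to 0.14 for the Sin3A shRNA (limma adjusted p = 0.936, 0.883 and 0.603). These intervals do not reach the fitted Mt1 changes with shRNA 4, shRNA 5 and the Sin3A shRNA. Mt4, which lies beside Mt3 and is no member of the 5 genes, was below the median probe set in all groups and passed in none of these comparisons (differences -0.046, -0.11 and -0.072).

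Mtf1, the zinc sensor, read 8.60, 8.54 and 8.52 with the scrambled shRNA of the Tet1 set, 8.60, 8.66 and 8.60 with shRNA 4 and 8.59, 8.69 and 8.69 with shRNA 5. In the Sin3A set it read 9.73, 9.57 and 9.74 with scrambled and 9.60, 9.44 and 9.32 with the Sin3A shRNA. Knockdown and scrambled arrays overlapped in each comparison. The log2 differences were 0.065 (95% interval -0.063 to 0.19, limma adjusted p = 0.571) and 0.10 (-0.025 to 0.23, 0.309) with shRNA 4 and 5. With the Sin3A shRNA the difference was -0.23 (-0.42 to -0.039, 0.082), and it passed without Sin3A shRNA replicate 1 (-0.30, limma adjusted p = 0.0293), among probe sets above the median level (0.0414) and with an intensity trend and robust variance (0.0459). In the Tet1 set 3 of the 9 arrays held exactly the same Mtf1 value, a kind of tie that touched 49.1% of the probe sets of that set and 0 of the Sin3A set. How such ties affect the intervals was not tested.

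Slc30a1, the zinc exporter, read 8.09, 7.94 and 8.10 with the scrambled shRNA of the Tet1 set, 8.24, 8.21 and 8.22 with shRNA 4 and 8.20, 8.33 and 8.39 with shRNA 5. Both knockdown groups lay wholly above the scrambled arrays. It rose by 0.26 with shRNA 5 (1.20-fold, 95% interval 0.10 to 0.42, limma adjusted p = 0.0362), while the 0.18 with shRNA 4 (0.021 to 0.34) missed the threshold (limma adjusted p = 0.155). The shRNA 5 call held in 4 of 13 other settings. It was lost without any 1 of the 3 scrambled arrays or without replicate 2 or 3 of shRNA 5 (limma adjusted p = 0.0556 to 0.130), without both arrays set apart (0.0836), after centring on the median (0.0591), with the replicate block (0.0576) and with only the 2 groups compared (0.0817).

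In the Sin3A set Slc30a1 read 8.58, 8.40 and 8.49 with scrambled and 8.66, 8.65 and 8.66 with the Sin3A shRNA. The knockdown arrays were nearly identical and lay above all scrambled arrays. The difference of 0.17 (95% interval 0.037 to 0.31) did not pass (limma adjusted p = 0.0679), and it passed without scrambled replicate 1 (0.22, limma adjusted p = 0.0492) and among probe sets above the median level (0.0281).

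**Figure D3:**
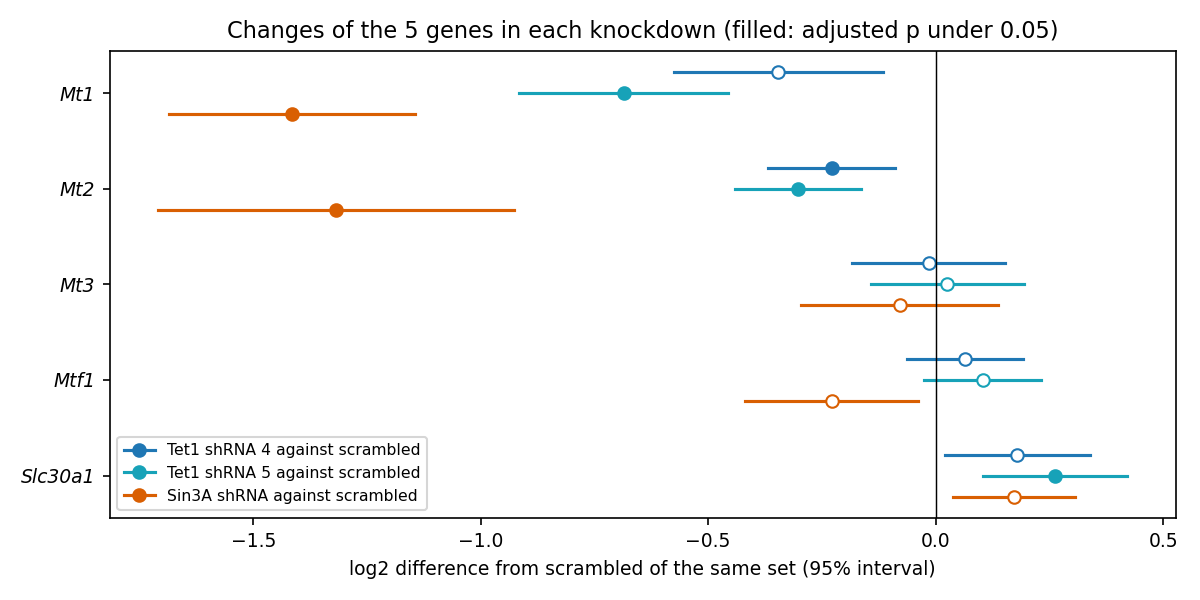
Log2 difference from the scrambled arrays of the same set for the 5 genes, with 95% intervals (n = 3 arrays per group). Filled points passed at an adjusted p under 0.05, and the intervals of Mt1 and Mt2 for the Sin3A shRNA do not meet those for the Tet1 shRNAs.

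Counted against the background of all probe sets, 1 of the 5 genes was lower with Tet1 shRNA 4 (Mt2; with the replicate block 2 were, Mt1 and Mt2) where 4.71% of all probe sets were lower, and 0 were higher where 6.88% were higher. With Tet1 shRNA 5, Mt1 and Mt2 were lower (5.46% of all probe sets) and Slc30a1 was higher (8.37%). With the Sin3A shRNA, Mt1 and Mt2 were lower (12.6%) and 0 were higher (12.2%). Of the 5 genes Mt2 passed as lower with both Tet1 shRNAs (3.4% of all probe sets) and 0 passed as higher with both (5.4%). Mt2 was also lower with the Sin3A shRNA, as were 284 probe sets or 1.34% in all. The genes were picked with these contrasts known, so nothing is read from these shares. The comparisons of both Tet1 shRNAs share the same 3 scrambled arrays.

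Whether the hairpins against Tet1 differ was tested directly. Mt1 was lower with shRNA 5 than with shRNA 4 by 0.34 (95% interval -0.57 to -0.11), with no overlap between the arrays, and this did not pass (unadjusted p = 0.0083, limma adjusted p = 0.323). Mt2 differed by -0.074 (-0.21 to 0.065, limma adjusted p = 0.82). In this limma comparison 0 of the 5 genes passed and 1, Mt1, had an unadjusted p under 0.05, where 30 of 21212 probe sets passed (0.141%) and 1836 had an unadjusted p under 0.05. Tet1 itself read 10.43, 10.44 and 10.39 with shRNA 4 and 9.94, 10.14 and 10.20 with shRNA 5, a difference that did not pass either (-0.33, limma adjusted p = 0.165).

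The difference between the knockdowns was tested as the mean Tet1 effect minus the Sin3A effect. For Mt1 the mean Tet1 effect of -0.52 and the Sin3A effect of -1.42 differed by 0.90 (SE 0.16, limma adjusted p = 0.000792). For Mt2 effects of -0.27 and -1.32 differed by 1.05 (SE 0.17, limma adjusted p = 0.000592). On the log2 scale the fall of both metallothioneins was thus larger with the Sin3A shRNA. The sets are on separate scales, and Sin3a has a single hairpin. Target, set, scale and hairpin cannot be told apart in this difference. The fit used 1 spread per gene, although the Mt2 SD was 0.39 with the Sin3A shRNA and 0.049 to 0.071 in the Tet1 set. Mtf1 differed by 0.31 (mean Tet1 effect 0.084, Sin3A effect -0.23, limma adjusted p = 0.0275), a call lost without scrambled replicate 3 of the Tet1 set, scrambled replicate 1 or 3 of the Sin3A set or Sin3A shRNA replicate 2 or 3 (0.0629 to 0.0797), without both arrays set apart (0.0567) and after repeated quantile normalization (0.0603). Mt3 and Slc30a1 did not pass (0.085 and 0.049). Of all probe sets 11.3% passed with a positive and 8.71% with a negative difference, and the 3 of 5 here were all positive.

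The other zinc transporters were counted in the same way. The Slc30 genes encode exporters that take zinc out of the cytosol. Of 10 measured, counting Slc30a1, 1 rose and 0 fell with both Tet1 shRNAs, and 1 rose and 1 fell with the Sin3A shRNA. Over all probe sets 5.4% rose and 3.4% fell with both Tet1 shRNAs, and 12.2% rose and 12.6% fell with the Sin3A shRNA. Slc30a2, which encodes a vesicular exporter, was in opposite directions. It read 8.20, 8.08 and 8.23 in the scrambled arrays of the Tet1 set, 8.69, 8.67 and 8.59 with shRNA 4 and 8.75, 8.81 and 8.79 with shRNA 5, a rise of 0.48 and 0.61 (limma adjusted p = 0.000901 and 0.000218). In the Sin3A set it fell from 8.90, 8.67 and 8.96 to 8.09, 8.12 and 8.22 (-0.70, limma adjusted p = 0.000826). Neither pair of groups overlapped, and the difference between the effects was 1.25 (limma adjusted p = 8.9e-07). Slc30a4 rose with the Sin3A shRNA by 0.63 (limma adjusted p = 0.000603) and stood at -0.022 with either Tet1 shRNA.

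The Slc39 genes encode importers that bring zinc into the cytosol. Of 14 measured, 0 rose and 1 fell with both Tet1 shRNAs (5.4% and 3.4% of all probe sets). With the Sin3A shRNA 4 rose and 2 fell (12.2% and 12.6% of all probe sets). Slc39a8 fell by 0.28 with each Tet1 shRNA (limma adjusted p = 0.00834 and 0.00769). With the Sin3A shRNA Slc39a4, the intestinal-type importer, fell by 0.49 and Slc39a1 by 0.35 (limma adjusted p = 0.00032 and 0.0135; the Slc39a1 call was lost without Sin3A shRNA replicate 2, 0.0507), while Slc39a11 and Slc39a6 rose by 0.32 and 0.31 (0.0037 and 0.00552). The other Slc39 genes that rose, outside the naming rule and named after their values were seen, were Slc39a14 by 0.28 and Slc39a5 by 0.18. The Slc39a5 call was lost in 7 of 10 other settings (limma adjusted p of up to 0.112), among them each scrambled array or Sin3A shRNA replicate 2 or 3 left out. Median changes over all probe sets were near 0 (-0.0032 with shRNA 4, -0.0044 with shRNA 5 and 0.0063 with the Sin3A shRNA). The medians of the Slc30 list were 0.12, 0.045 and 0.067, and those of the Slc39 list were 0.00040, 0.049 and 0.0020.

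**Figure D4:**
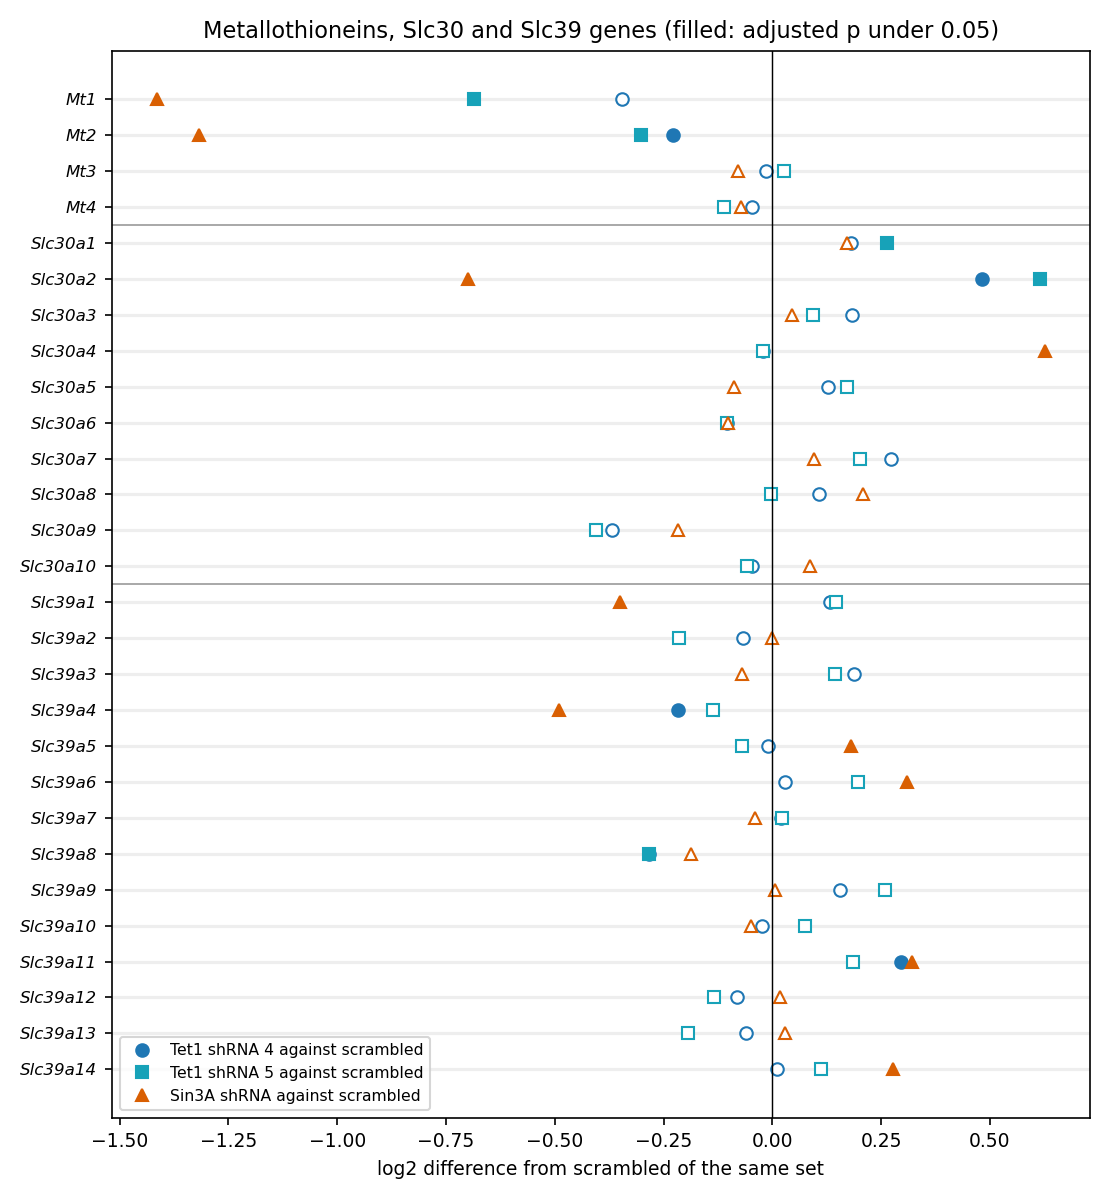
Log2 difference from scrambled for 4 metallothioneins, 10 Slc30 and 14 Slc39 genes, with filled symbols for an adjusted p under 0.05. Mt1 and Mt2 are the lowest points with the Sin3A shRNA, and Slc30a2 lies at 0.48 and 0.61 with the Tet1 shRNAs and -0.70 with the Sin3A shRNA.

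Other genes reported to depend on MTF-1 went different ways in the knockdowns. Of 10 measured, which include Slc30a1 and Slc30a2, 3 rose and 1 fell with both Tet1 shRNAs (5.4% and 3.4% of all probe sets). With the Sin3A shRNA 1 rose and 6 fell (12.2% and 12.6% of all probe sets). The medians of the 10 genes were 0.081 and 0.11 with the Tet1 shRNAs and -0.31 with the Sin3A shRNA. Selenow, a selenoprotein gene, rose by 0.32 and 0.59 with the Tet1 shRNAs (limma adjusted p = 0.0247 and 0.000904) and fell by 0.62 with the Sin3A shRNA (0.000317). The shRNA 4 call was lost without replicate 1 or 3 of scrambled or of shRNA 4 (0.058 to 0.0844) and with only the 2 groups compared (0.0723). Ndrg1, a stress-induced gene, rose by 0.37 and 0.38 and fell by 0.39 with the Sin3A shRNA. Slc40a1, which encodes the iron exporter ferroportin, fell by 1.14 and 0.80 with the Tet1 shRNAs and by 0.41 with the Sin3A shRNA (limma adjusted p = 3.42e-05, 0.000242 and 0.0107). Gclc, an enzyme gene of glutathione synthesis, rose by 0.40 with the Sin3A shRNA (0.00216). The list was compiled from general knowledge of the field and shares members with the Slc30, Slc39 and iron lists, and Gclc with the NRF2 list below.

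Metallothioneins also respond to other signals, and the genes of those responses were counted in the same way. Over all probe sets 5.4% rose and 3.4% fell with both Tet1 shRNAs, and 12.2% rose and 12.6% fell with the Sin3A shRNA. Nothing is read from the counts of these short lists. Of 15 genes listed for the oxidative stress factor NRF2, 2 rose and 0 fell with both Tet1 shRNAs, and 5 rose and 3 fell with the Sin3A shRNA. Besides targets the list holds Nfe2l2, which encodes NRF2, and Keap1, which encodes its inhibitor. Nfe2l2 (0.25) is among the 5 that rose. With the Sin3A shRNA the thioredoxin reductase gene Txnrd1 rose by 0.44 and the transporter gene Abcc1 fell by 0.83. Of 17 genes of copper handling, Mt1 and Mt2 included, 2 rose and 1, Mt2 itself, fell with both Tet1 shRNAs. With the Sin3A shRNA 4 rose and 3 fell, Mt1 and Mt2 among them. The metalloreductase gene Steap3 rose by 0.86 and 1.12 with the Tet1 shRNAs and fell by 0.62 with the Sin3A shRNA, and the copper chaperone gene Atox1 rose by 0.56 with the latter. Of 13 genes of iron handling, 1 rose and 1 fell with both Tet1 shRNAs and 2 rose and 1 fell with the Sin3A shRNA. Of 12 glucocorticoid-responsive genes, 1 rose and 1 fell, and with the Sin3A shRNA 2 rose and 2 fell, with Nr3c1, the glucocorticoid receptor gene, up by 1.22 (limma adjusted p = 4.44e-05). Of 11 heat shock genes, 1 rose and 0 fell with both Tet1 shRNAs, and 0 rose and 3 fell with the Sin3A shRNA, which leaves 8 that did not pass. Hmox1, among these 3, also stands in the NRF2 list, so the lists are not separate readings.

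Among named probe sets, those most like Mt1 and Mt2 in pattern were found over the 15 arrays by Pearson's r, after the mean of the scrambled arrays of the set was subtracted. Of 3772 probe sets with an SD of at least 0.2, Ecm1 (r = 0.975), Pla2g1b (0.974), Dtx1 (0.969), Clstn1 (0.962) and Klf2 (0.958) were closest to Mt1, and Mt2 ranked 11 with 0.95. For Mt2 they were Pla2g1b (0.982), Upk1a (0.969), Snai1 (0.96), Rad9a (0.955) and Dlg4 (0.954), and Mt1 ranked 9. The arrays share groups and normalization, and the Sin3A shRNA arrays carry much of each r. Within the Tet1 set alone Snai1 and Rad9a had r = 0.305 and 0.413 with Mt2, while Pla2g1b had 0.932. Pla2g1b, a secreted phospholipase gene near the top for both, stood at -0.25 and -0.32 with the Tet1 shRNAs and fell by 1.03 with the Sin3A shRNA (limma adjusted p = 0.109, 0.0376 and 0.000457). Dropping scrambled replicate 2 or 3, or any 1 of the 3 shRNA 5 arrays, ended its shRNA 5 call (limma adjusted p of up to 0.133).

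Mt1, Mt2, Mt3 and Mt4 lie side by side in the order of RefSeq genes, and the 3 named genes on each side were examined after the values above had been seen. Of these 6 neighbours 0 passed with Tet1 shRNA 4, 1 with shRNA 5 and 3 with the Sin3A shRNA. Over all probe sets 6.88% rose and 4.71% fell with shRNA 4, and 8.37% and 5.46% with shRNA 5. With the Sin3A shRNA the shares were 12.2% and 12.6%, and nothing is read from counts among 6 genes. Herpud1, an endoplasmic reticulum stress gene, fell by 0.33 with shRNA 5 and by 0.38 with the Sin3A shRNA. The former call ended when scrambled replicate 2 or 3, or any 1 of the shRNA 5 arrays, was dropped (limma adjusted p of up to 0.0951). With the latter Ogfod1 rose by 0.44 and Bbs2 fell by 0.25. Nup93, next to Mt1, stood at 0.028, 0.034 and -0.0047.

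Markers of the cell type and of other cells were read beside these changes. Their counts stand against 5.4% higher and 3.4% lower of all probe sets with both Tet1 shRNAs. With the Sin3A shRNA these shares were 12.2% and 12.6%, and nothing is read from the counts. The 10 embryonic stem cell markers all lay above the median probe set in every group, with 2 higher and 1 lower with both Tet1 shRNAs and 1 higher and 1 lower with the Sin3A shRNA. The summed level of 11 trophoblast markers, in log2, was 11.15 to 11.41 in the scrambled arrays of the Tet1 set, 10.68 to 10.77 with shRNA 4 and 10.79 to 10.82 with shRNA 5, and 12.84 to 12.89 against 12.18 to 12.24 in the Sin3A set. Of these markers 2 rose and 4 fell with both Tet1 shRNAs, and 1 rose and 5 fell with the Sin3A shRNA, and 5 did neither in each case. Their median change was -0.086 and 0.028 with the Tet1 shRNAs and -0.29 with the Sin3A shRNA. The 4 that fell with both Tet1 shRNAs were the keratin genes Krt8 (-1.40 and -1.39), Krt18 and Krt7 and the transcription factor gene Tfap2c, while Eomes and Gata3 rose. The part of these markers in the Mt1 and Mt2 results was not tested. For 16 fibroblast markers the counts were 3 and 2 with both Tet1 shRNAs and 1 and 4 with the Sin3A shRNA. For 16 endoderm markers they were 3 and 1, and 2 and 1, and for 12 neural and glial markers 0 and 3, and 2 and 2. The summed log2 level of the embryonic stem cell markers was 15.38 to 15.47 in the scrambled arrays of the Tet1 set, 15.48 to 15.50 with shRNA 4 and 15.39 to 15.45 with shRNA 5, and 15.80 to 15.84 against 15.85 to 15.86 in the Sin3A set. In the same order the fibroblast sum was 13.82 to 13.92, 14.15 to 14.20 and 14.17 to 14.24, and 14.78 to 14.80 against 14.90 to 14.92. The endoderm sum was 12.15 to 12.27, 12.45 to 12.55 and 12.59 to 12.63, and 13.18 to 13.23 against 13.37 to 13.39. The neural and glial sum was 10.84 to 10.90, 10.47 to 10.56 and 10.55 to 10.62, and 11.74 to 11.75 against 11.93 to 11.96. Fibroblast and endoderm sums were thus higher in every knockdown array than in the scrambled arrays of its set, and the trophoblast sum was lower. Fibroblast markers above the median probe set numbered 7 with scrambled and 5 with each Tet1 shRNA, and 9 against 7 in the Sin3A set. For endoderm these counts were 7, 8 and 8, and 7 against 6. For trophoblast they were 5, 6 and 6, and 5 against 5, and for neural and glial markers 7, 5 and 6, and 5 against 5. The sums add linear levels, in which abundant genes weigh most, and the fibroblast and endoderm lists share Sparc. With the Sin3A shRNA the fibroblast sum was higher although 1 of its markers rose and 4 fell. With Tet1 shRNA 4 and 5 the fibroblast markers Vim (0.70 and 0.83), Thy1 (0.82 and 0.81) and Sparc (0.48 and 0.68) rose. Acta2 (-1.30 and -1.25) and Tagln (-1.06 and -0.92) fell, and the other 11 did neither with both. In such bulk samples, fewer cells of a type and less RNA per cell cannot be told apart.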

How the data were processed

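Each sample's total RNA was prepared by an Affymetrix whole transcript assay, as the labels' protocols state, and filled 1 array. The authors deposited log2 expression values for 21212 probe sets. The submitters' processing notes name affy, RMA and limma, with no version. Settings, array scaling across sets and the genome build are not given in the sources used here. Differing column means show that the sets are on separate scales. In the platform annotation 18786 probe sets carried 1 symbol, 6 carried several and 2420 carried none.

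Linear models were fitted with limma 3.58.1 (lmFit, eBayes, two-sided) in R 4.3.3. The Tet1 set (9 arrays) and the Sin3A set (6 arrays) were fitted separately, and all 15 arrays entered a further fit for the difference between the effects. P-values were adjusted by Benjamini-Hochberg over all 21212 probe sets (threshold 0.05), with 95% intervals, and the code was tested on simulated data. Fold changes are ratios on the linear scale, computed from log2 differences. The number of arrays limits precision.

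The members, the 14 gene lists and the tests were chosen with earlier results of these data known. Of 180 listed symbols 172 were matched, to 161 genes. Besides the members, up to 4 genes per list that passed for both Tet1 shRNAs and up to 4 that passed for the Sin3A shRNA could be named, and the 5 probe sets most like Mt1 and Mt2. The metallothionein list held 4 genes, of which 0 rose and 1 fell with both Tet1 shRNAs and 2 fell with the Sin3A shRNA. Other scalings, filters, variance models, sample choices and a replicate block were tried. Replicate numbers come from the labels. Same-numbered arrays of scrambled and Tet1 shRNA 4 had deviations with r of 0.274, 0.517 and 0.171 and were taken as paired. Blocked values therefore stand beside that comparison where a call changes. Scrambled replicate 1 was as alike to shRNA 4 replicate 3 (0.281), and scrambled replicate 3 to shRNA 4 replicate 1 (0.162). The other differently numbered pairs, each with a replicate 2 array, had r of -0.455 to -0.274. Only the replicate 2 pair thus stood out, and the labels do not state a pairing. The block was fitted over all 9 arrays. In the other comparisons of the Tet1 set (r from -0.287 to 0.0361) and in the Sin3A set (-0.274 to 0.0212) same-numbered arrays were not taken as paired.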

Additional observations from a re-analysis of the deposited data

Results flagged for a closer look

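The effect of the Tet1 shRNAs and that of the Sin3A shRNA differed by test for 3 of the 5 genes, as the mean Tet1 effect minus the Sin3A effect on the log2 scale with limma adjusted p-values. The knockdowns lie in separate sets on separate scales. Target, set, scale and the single Sin3A hairpin cannot be told apart in these differences. The difference was 0.90 for Mt1 (limma adjusted p = 0.000792) and 1.05 for Mt2 (0.000592), where both effects were negative, and 0.313 for Mtf1 (0.0275), where neither effect passed singly. The Mtf1 call held in 14 of 21 other settings (limma adjusted p of up to 0.0797). Among the other zinc transporters the difference was 1.25 for Slc30a2 (8.9e-07), -0.649 for Slc30a4 (0.002), 0.488 for Slc39a1 (0.00822) and 0.313 for Slc39a4 (0.00417). Among other genes reported to depend on MTF-1 it was 1.07 for Selenow (1.93e-06), 0.757 for Ndrg1 (1.8e-05) and -0.555 for Slc40a1 (0.00324). Slc30a2, Selenow and Ndrg1 rose with both Tet1 shRNAs and fell with the Sin3A shRNA, while Slc40a1 fell with all 3 hairpins and more with those against Tet1. For some of the other genes named above, it was 1.61 for Steap3 (5.72e-07), 1.1 for Abcc1 (1.5e-07), -0.267 for Txnrd1 (0.0276), -0.585 for Atox1 (0.00322), -1.05 for Nr3c1 (1.17e-06) and -0.362 for Ogfod1 (0.0245). Eomes (1.03), Gata3 (0.879), Sparc (0.457) and Nfe2l2 (-0.412) passed too, and not every named gene that passed is listed here.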

How the results depend on the processing

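The 5 genes gave 355 values under the alternatives, of which 321 kept their side of the threshold, 24 lost a call and 10 gained one. No called value changed sign (0 of these values). Mt1 and Mt2 passed with Tet1 shRNA 5 in 13 of 13 settings, with the Sin3A shRNA in 11 of 11 and for the difference between the effects in 21 of 21. With Tet1 shRNA 4, where 1 of the 5 genes passed, 2 passed after centring on the median, among probe sets above the median level, with an intensity trend and robust variance, and with the replicate block. There 0 passed with only the 2 groups compared and without both arrays that stood apart, and 0 to 1 when single arrays were left out. With the Sin3A shRNA, 4 genes passed instead of 2 among probe sets above the median level. Only scrambled and shRNA 4 arrays were taken as paired by replicate number, a pairing that the labels do not state. With the replicate block Mt1 passed with shRNA 4 (limma adjusted p = 0.0229) and Slc30a1 did not with shRNA 5 (0.0576). No other call of the 5 genes changed. Without both arrays that stood apart, an alternative added for the lists after the data had been seen, 0 metallothioneins fell with both Tet1 shRNAs (1 as deposited), 1 Slc30 gene rose and 1 fell, 0 Slc39 genes rose and 1 fell, and 3 MTF-1 dependent genes rose and 1 fell. Also without both arrays, 1 gene of the NRF2 list rose and 0 fell, 2 copper genes rose and 0 fell, and 2 heat shock genes rose and 0 fell. Then 4 endoderm markers rose and 2 fell, and 2 trophoblast markers rose and 3 fell. The counts of the iron, glucocorticoid, embryonic stem cell, fibroblast and neural lists did not change. Of all 21212 probe sets, 1135 rose and 824 fell with both Tet1 shRNAs without these arrays, against 1146 and 722 as deposited. The causes were not tested.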
